A study of Mus musculus with 12 samples.

Results

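The endoplasmic reticulum (ER) chaperone and unfolded protein response genes Hspa5, Hsp90b1, Calr, Pdia4, Dnajb9, Sdf2l1, Creld2, Manf, Herpud1 and Xbp1 were examined in mouse liver RNA. They were chosen by name, as targets of the ATF6 and XBP1 branches of the response, and are 10 of the 36047 genes to which the deposited transcripts could be assigned. Livers came from 12 adult male C57Bl/6J mice, singly housed, fed for 7 days and deprived of food for 4 h, 3 on each of 4 diets, named RF.Ctrl and RF.SAAR (regular fat) and HF.Ctrl and HF.SAAR (high fat). By the paper, mice on every diet were also given deuterium, first by injection and then in the drinking water. All 4 diets lacked cysteine, and the sulfur amino acid restricted (SAAR) diets also held less methionine than the control (Ctrl) diets, with glutamic acid making up the difference. The question was whether these genes moved with the ATF4 targets, which are known to respond to amino acid shortage.

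Secreted and membrane proteins fold in the ER, and the liver makes them in large amounts. When unfolded protein accumulates there, 3 sensors in the ER membrane signal to the nucleus: ATF6 is cut to release a transcription factor, IRE1 (encoded by Ern1) splices the Xbp1 mRNA so that it encodes an active factor, and PERK (encoded by Eif2ak3) phosphorylates eIF2α, which favors translation of ATF4. ATF6 and XBP1 raise transcription of chaperone genes through ER stress response elements, whereas ATF4 can also be switched on without ER stress, by GCN2 when amino acids are scarce.

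The promoters show which of the genes carry such elements. The windows of RefSeq (GRCm38.p6) hold the 250 bases before a gene's start and 50 after it, and were available for 9 of the 10 genes, Manf being the exception. The ER stress response element ERSE was searched as the 5 letters CCAAT and the 5 letters CCACG with 9 free letters between them, on both strands. It was present in Hspa5, Hsp90b1, Calr and Creld2, with 2 copies in Hsp90b1, and in 0.119% of the 32851 windows of all genes. ERSE-II, the letters ATTGG and CCACG with 1 free letter between them, was found in Herpud1 and in 0.037% of all windows. The Herpud1 promoter also held the letters TGATGNAA, the composite C/EBP-ATF site bound by ATF4, which 3.97% of all windows hold. Pdia4 had a copy of ERSE in which 1 of the 10 fixed letters differed, and so had Hsp90b1 and Herpud1 beside their exact sites. Counting exact copies too, 1.50% of windows hold such a copy. For Pdia4 alone of the 9 genes, the bases checked after the start were not found in any annotated transcript of the gene. Dnajb9, Sdf2l1 and Xbp1 had no exact copy of any of these or of the UPR element TGACGTGG, which 0.676% of windows held. The sites of the 5 genes with an exact copy are shown 5′ to 3′ on the gene's own strand, from 10 bases before to 10 bases after the sites, with the fixed letters in capitals. In Calr, Creld2 and the downstream copy of Hsp90b1 the element is read on the other strand, and so is the composite site of Herpud1, which comes before its ERSE-II. Capitals mark letters, not measured binding.
Hspa5, chr2:34772015-34772053, plus strand: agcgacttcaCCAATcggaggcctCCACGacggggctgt
Hsp90b1, chr10:86705523-86705666, minus strand: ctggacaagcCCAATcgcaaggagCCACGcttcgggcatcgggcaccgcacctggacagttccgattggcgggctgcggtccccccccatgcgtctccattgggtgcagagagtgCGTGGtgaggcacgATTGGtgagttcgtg
Calr, chr8:84847065-84847103, minus strand: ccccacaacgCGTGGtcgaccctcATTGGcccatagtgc
Creld2, chr15:88819510-88819548, plus strand: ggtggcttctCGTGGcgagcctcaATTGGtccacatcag
Herpud1, chr8:94386307-94386397, plus strand: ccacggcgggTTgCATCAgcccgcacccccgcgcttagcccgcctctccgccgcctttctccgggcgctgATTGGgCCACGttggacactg

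Total estimated counts per mouse ranged from 16203094 to 21230092. Values are normalized CPM, which are counts as a share of a library's total, scaled by TMM factors, and differences are log2 fold changes from edgeR's quasi-likelihood fit over all 12 mice, with p-values adjusted over the 14670 genes tested, which include all 10 genes. A gene was called when its adjusted p was under 0.05. Nothing in the sources says whether mice of a group shared a litter or an extraction, so p-values measure the spread between these mice. In whole liver, less RNA per cell and fewer cells of a type cannot be told apart. Hepatocyte markers were abundant in every mouse, their summed level varying 1.27-fold. That level was lower without overlap with RF.SAAR (85801 to 93816 CPM) than with RF.Ctrl (95545 to 109360). HF.SAAR (88364 to 99480) and HF.Ctrl (91418 to 104430) overlapped. Over both fat levels 8 of the 10 hepatocyte markers had lower estimates with restriction, with a median log2 fold change of −0.14. The summed level of 34 pancreatic acinar genes ran from 86.3 to 1866 CPM in the RF.Ctrl mice, from 45.0 to 106 with RF.SAAR, from 85.8 to 7816 with HF.Ctrl and from 76.98 to 20523 with HF.SAAR. It exceeded 1000 CPM in RF.Ctrl mouse 1, HF.Ctrl mice 1 and 2 and HF.SAAR mice 2 and 3. Acinar cells are rich in ER chaperones, so results are also given without these 5 mice. That leaves 2 RF.Ctrl and 3 RF.SAAR mice and 1 mouse in each high-fat group. The summed level of 7 plasma cell markers, another secretory cell type, lay between 8.32 and 73.1 CPM (1 of them, Derl3, is also a degradation gene of the response).

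With restriction, 8 of the 10 genes had lower estimates at both fat levels, and none had a significantly higher level. Over both fat levels together, SAAR vs. Ctrl, 3 of the 10 genes fell: Sdf2l1, Xbp1 and Hsp90b1. Of all genes tested, 3.70% were called lower and 3.21% higher in this comparison, 6.91% together. The median log2 fold change of the 10 genes was −0.36, against −0.0039 for all genes. Within one fat level no gene of the 10 passed, where 1.48% of all genes did on the regular-fat diets (RF.SAAR vs. RF.Ctrl) and 1.97% on the high-fat diets (HF.SAAR vs. HF.Ctrl). At an unadjusted p under 0.05, edgeR gave 4 of the 10 on the regular-fat diets, against 13.5% of all genes, and 2 on the high-fat diets, against 12.4%. DESeq2 called Hsp90b1 and Sdf2l1 lower on the regular-fat diets, where it called 1.38% of its 23891 tested genes lower, and none of the 10 on the high-fat diets, where it called 2.49% in either direction.

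**Figure D1:**
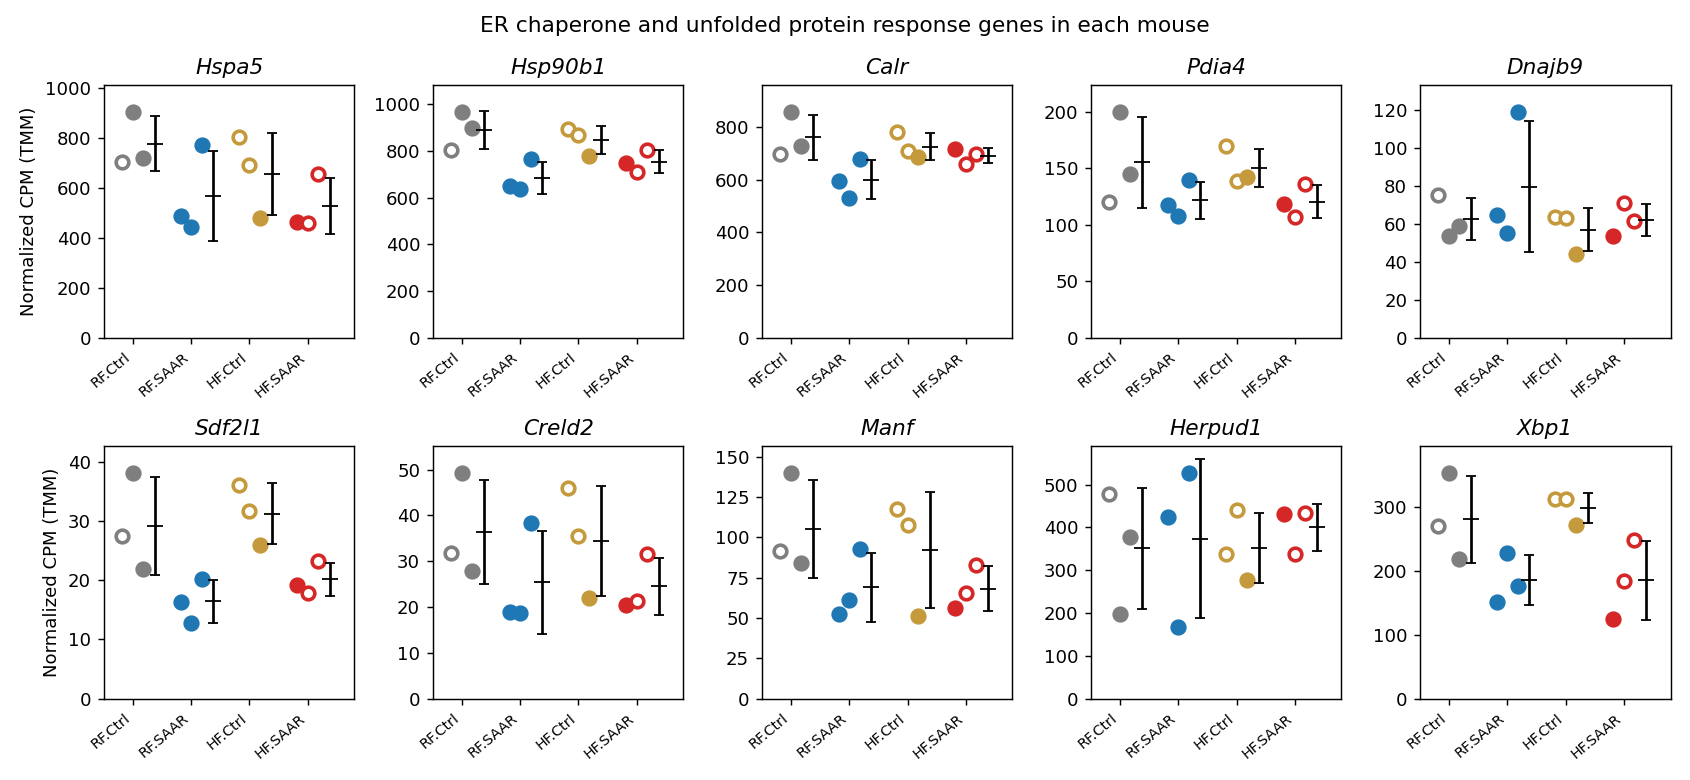
Normalized CPM of the 10 genes (vertical axes from 0) in each mouse of the 4 groups; open points are the 5 mice with over 1000 CPM of acinar genes, and the black marks are the mean ± SD of 3 mice. Sdf2l1 is lower in all SAAR mice than in all Ctrl mice at each fat level, while the Dnajb9 and Herpud1 groups overlap.

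Hspa5 encodes BiP, the ER's HSP70 chaperone, which also holds the sensors inactive. Its level was 704, 902 and 721 CPM in the RF.Ctrl mice and 486, 443 and 771 in the RF.SAAR mice. On the high-fat diets it was 801, 690.4 and 478 CPM with HF.Ctrl and 462, 461 and 656 with HF.SAAR. The groups overlapped at both fat levels, through RF.SAAR mouse 3 and HF.Ctrl mouse 3. The log2 fold change was −0.45 (SE 0.24, edgeR adjusted p = 0.477) on the regular-fat and −0.32 (SE 0.24, adjusted p = 0.676) on the high-fat diets, and −0.39 over both (adjusted p = 0.232). The 95% interval over both, before adjustment, ran from −0.76 to −0.011.

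Hsp90b1 (chromosome 10, 86690209 to 86705509, minus strand, GENCODE M21 on GRCm38) encodes GRP94, the ER's HSP90. It measured 802, 967 and 898 CPM in the RF.Ctrl mice and 649, 638 and 764 with RF.SAAR. In HF.Ctrl it measured 893, 867 and 780.2 CPM, with HF.SAAR 747, 708 and 806. All RF.SAAR mice lay below all RF.Ctrl mice, whereas HF.SAAR mouse 3 lay above HF.Ctrl mouse 3. It fell to 0.83-fold over both fat levels (log2 −0.27, SE 0.073, edgeR adjusted p = 0.0390), made up of −0.38 on the regular-fat and −0.17 on the high-fat diets. With 1 mouse left out the estimate stayed between −0.31 and −0.24, and the call was kept without RF.Ctrl mouse 1, RF.SAAR mouse 3, HF.Ctrl mouse 3 or HF.SAAR mouse 3 and lost without any of the other 8 mice (edgeR adjusted p = 0.0714 to 0.109).

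Calr encodes calreticulin, the lectin chaperone that binds newly glycosylated proteins and calcium. It lay between 699 and 858 CPM in the RF.Ctrl mice and between 530.1 and 677 with RF.SAAR, with no overlap. In HF.Ctrl it lay between 688 and 783 CPM and in HF.SAAR between 660.1 and 718, which overlap. Its log2 fold changes were −0.34 (SE 0.11, edgeR adjusted p = 0.159) and −0.070 (SE 0.11, adjusted p = 0.872). Pdia4, a protein disulfide isomerase, had 120.3, 199.6 and 145 CPM with RF.Ctrl, 117, 108 and 139.6 with RF.SAAR, 169, 138 and 142 with HF.Ctrl, and 119, 107 and 136 with HF.SAAR. Its groups did not overlap on the high-fat diets, and it had log2 fold changes of −0.35 and −0.32 (edgeR adjusted p = 0.399 and 0.489).

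Dnajb9 and Sdf2l1 both assist BiP. Dnajb9 encodes ERdj4, a J-domain co-chaperone that is a well known XBP1 target. Its level was 75.3, 53.9 and 58.9 CPM with RF.Ctrl, 64.6, 55.5 and 119 with RF.SAAR, 63.8, 63.4 and 44.0 with HF.Ctrl and 53.8, 70.9 and 61.4 with HF.SAAR. RF.SAAR mouse 3 had the highest value of all, and without it the RF estimate went from 0.35 to −0.056. Dnajb9 was not called in any comparison (log2 0.23 over both fat levels, SE 0.19, edgeR adjusted p = 0.557).

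Sdf2l1 (chromosome 16, 17130138 to 17132383, minus strand) works with the J-domain proteins of the ER to keep unfolded proteins soluble. It was at 27.5, 38.2 and 21.9 CPM in the RF.Ctrl mice and at 16.3, 12.8 and 20.2 with RF.SAAR. In HF.Ctrl mice it was at 36.2, 31.7 and 25.9 CPM, with HF.SAAR at 19.2, 17.9 and 23.3. It alone of the 10 genes was lower without overlap at both fat levels. Taken singly, the regular-fat diets had 9.71% of all genes lower without overlap and the high-fat diets 8.96%. The share of all genes at both was not counted. Over both it fell to 0.60-fold (log2 −0.73, SE 0.15, edgeR adjusted p = 0.0119), and the fall was called with each of the 12 mice left out in turn. On one fat level the log2 fold changes were −0.83 (edgeR adjusted p = 0.0853) and −0.63 (adjusted p = 0.195).

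Creld2, a folding factor retained in the ER, and Manf, a small protein that binds BiP and is also secreted, varied widely within groups. Creld2 ranged from 27.9 to 49.3 CPM with RF.Ctrl, 18.7 to 38.4 with RF.SAAR, 21.9 to 46.0 with HF.Ctrl and 20.4 to 31.7 with HF.SAAR. Manf ranged from 83.8 to 140.0 CPM, 52.5 to 93.0, 50.9 to 118 and 55.9 to 83.0 in the same order. Both overlapped at both fat levels. Their log2 fold changes over both were −0.51 (SE 0.26, edgeR adjusted p = 0.320) and −0.52 (SE 0.24, adjusted p = 0.253). Manf shares bases with Dcaf1 on the opposite strand and with Rbm15b, and the library kit is not stated to keep strand.

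Herpud1 encodes HERP, a membrane protein of ER-associated degradation. It was at 477, 198 and 378 CPM in the RF.Ctrl mice and 424, 167 and 528 with RF.SAAR, so that 2 mice of different diets, RF.Ctrl 2 and RF.SAAR 2, held the lowest values. In HF.Ctrl it was at 337, 439.9 and 277 CPM, with HF.SAAR at 432, 337 and 433. The log2 fold changes were 0.088 (SE 0.42, edgeR adjusted p = 0.967) and 0.19 (SE 0.42, adjusted p = 0.921). The 95% interval over both fat levels ran from −0.54 to 0.81, before adjustment.

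Xbp1 (chromosome 11, 5520659 to 5525893, plus strand) is the substrate of IRE1 and itself a target of ATF6. It was at 269.7, 354 and 218 CPM in the RF.Ctrl mice and 151, 229 and 176 with RF.SAAR. In HF.Ctrl it was at 312, 312 and 271 CPM, with HF.SAAR at 124, 184 and 248. RF.SAAR mouse 2 overlapped the RF.Ctrl mice, and the high-fat groups did not overlap. Xbp1 fell to 0.64-fold over both fat levels (log2 −0.64, SE 0.17, edgeR adjusted p = 0.0457), with −0.60 (adjusted p = 0.298) and −0.69 (adjusted p = 0.233) on the regular-fat and high-fat diets. With 1 mouse left out the estimate stayed between −0.78 and −0.53, and the call was kept without RF.Ctrl mouse 3, RF.SAAR mouse 2 or HF.SAAR mouse 3 and lost without any of the other 9 mice (edgeR adjusted p = 0.0625 to 0.110). It was also lost with no filter on low counts (−0.64, edgeR adjusted p = 0.124). IRE1 removes a short stretch from within an exon, and none of the 4 Xbp1 transcripts quantified has an intron shorter than 300 bases in GENCODE M21. The main one took 86.0% of the gene's counts, and the count says nothing of how much Xbp1 was spliced.

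**Figure D2:**
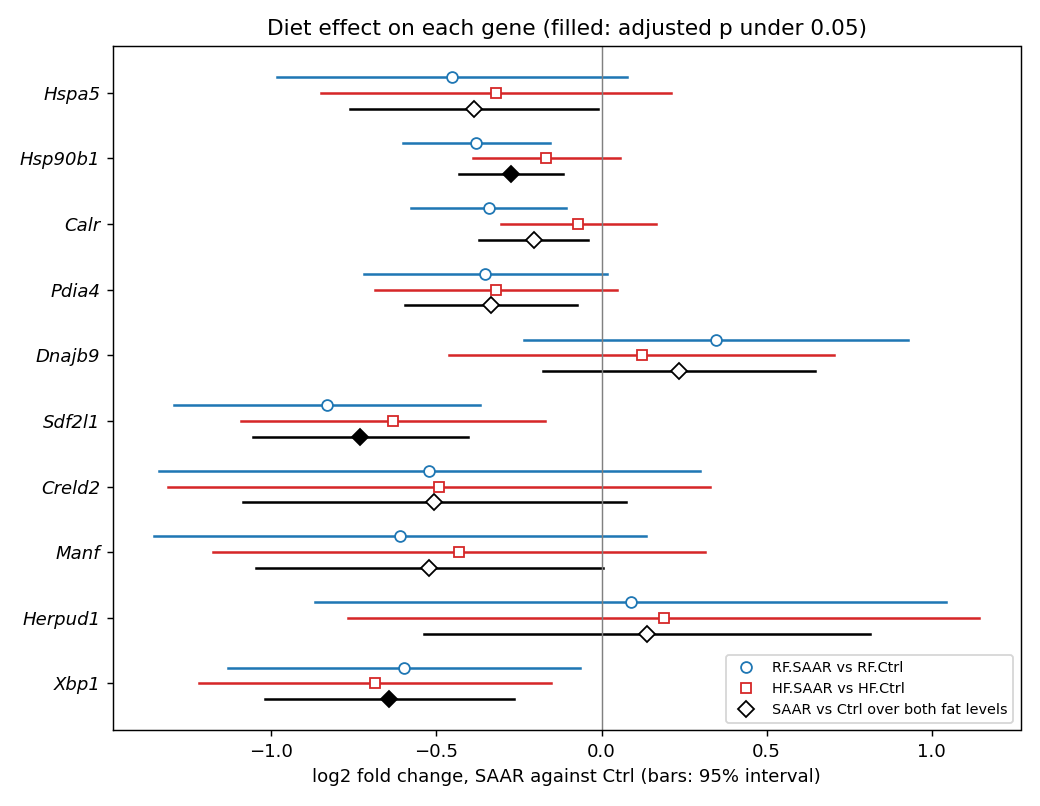
Log2 fold change of each gene with restriction (points) and its 95% interval before adjustment (bars), on the regular-fat diets, on the high-fat diets and over both; filled points passed the adjusted threshold. Only Hsp90b1, Sdf2l1 and Xbp1 over both fat levels are filled, all to the left of 0.

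Lower without overlap between the mice were 3 of the 10 genes on the regular-fat diets (Hsp90b1, Calr and Sdf2l1), against 9.71% of all genes, and 3 on the high-fat diets (Pdia4, Sdf2l1 and Xbp1), against 8.96%. No difference by the amount of fat was detected, but so few of all genes were called that this says little of the 10. Their SEs for the interaction ran from 0.15 (Hsp90b1) to 0.60 (Herpud1). None of the 10 genes was called in HF.SAAR vs. RF.SAAR, where 0.0477% of all genes were, in HF.Ctrl vs. RF.Ctrl, where 0% were, or in the interaction of diet and fat, where 0.00682% were. DESeq2 called none of them in these comparisons either (0.356%, 0.130% and 0.0670% of all genes), and no gene of the 10 had an unadjusted edgeR p under 0.05 there. Among the 10 genes the interaction was largest for Calr, at a log2 difference of 0.27 (SE 0.15, edgeR adjusted p = 0.999).

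Some directions with restriction depend on how libraries are scaled. TMM factors ran higher in SAAR than in Ctrl mice at each fat level except for HF.SAAR mouse 2, at 0.980 below HF.Ctrl mouse 3 at 0.998. Scaled by library size alone, 8 of the 10 genes still had lower estimates on the regular-fat diets and over both fat levels, and 6 on the high-fat diets. Over both, the median of the 10 was −0.19, while that of all genes moved up to 0.16. Of the 3 genes called with TMM only Sdf2l1 stayed called (log2 −0.56, edgeR adjusted p = 0.0297). Calls over all genes were then 2175 higher and 274 lower, against 471 and 543 with TMM. On the high-fat diets, Hsp90b1 and Calr turned to 0.0055 and 0.10 under that scaling, both below the median of all genes of 0.17. The deposited TPM are likewise not corrected for composition. On that scale the means of 4 of the 8 genes with lower estimates were higher with HF.SAAR than with HF.Ctrl. Hspa5 averaged 241 ± 46.3 TPM with HF.Ctrl and 247 ± 72.6 with HF.SAAR, Hsp90b1 289 ± 26.2 and 323 ± 52.8, Calr 358 ± 39.5 and 438 ± 55.1, and Pdia4 60.6 ± 10.5 and 61.6 ± 13.3 TPM (mean ± SD, n = 3). On the regular-fat diets Calr averaged 414 ± 64.1 TPM with RF.Ctrl and 419 ± 64.97 with RF.SAAR. The TMM values state each gene relative to the bulk of the other genes.

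Without the 5 mice with high acinar signal, none of the 10 genes was called over both fat levels, and 8 still had lower estimates there. Sdf2l1 had a log2 fold change of −0.66 (edgeR adjusted p = 0.300), Xbp1 −0.89 (adjusted p = 0.142) and Hsp90b1 −0.27 (adjusted p = 0.326). In that fit 1.53% of all genes were called, against 6.91% with all mice. On the high-fat diets, then 1 mouse against 1, Calr and Manf turned to 0.043 and 0.11. With the acinar level as a covariate and all mice kept, Sdf2l1 and Xbp1 were called and Hsp90b1 was not (adjusted p = 0.0505).

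Per length of mRNA, on the TPM scale, the order of the median levels over the 12 mice was Calr at 394, Hsp90b1 at 309, Hspa5 at 258, Herpud1 at 221, Manf at 153, Xbp1 at 144, Pdia4 at 65.1, Dnajb9 at 28.6, Sdf2l1 at 27.0 and Creld2 at 23.7. Each neighbor's range over the mice overlapped the next, most narrowly for Xbp1, whose lowest mouse had 92.4 TPM, and Pdia4, whose highest had 92.9. Herpud1 varied most between mice (3.79-fold from the lowest to the highest TPM) and Hsp90b1 least (1.47-fold).

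Some of the genes also varied together between mice of the same diet. RF.SAAR mouse 3 had the highest value of its group for 9 of the 10 genes, all but Xbp1, and HF.Ctrl mouse 3 the lowest of its group for 9, all but Pdia4. Neither had over 1000 CPM of acinar genes. HF.Ctrl mouse 1 and HF.SAAR mouse 3, which did, were each the highest of their group for 8. The others over that limit were not: HF.Ctrl mouse 2 and RF.Ctrl mouse 1 were highest for 2 each, and HF.SAAR mouse 2 was lowest for 6. A share of the acinar signal in these ranks was not tested. RF.Ctrl mouse 2 was the highest of its group for the 8 genes with lower estimates and the lowest for Dnajb9 and Herpud1. Over the 12 mice, Pearson's r of log2 CPM among those 8 genes had a median of 0.81 (28 pairs, 0.46 to 0.96). With group means removed the median was 0.79 but the range was 0.035 to 0.97, since Xbp1 had r of only 0.035 with Calr to 0.57 with Manf. Dnajb9 and Herpud1 had r between −0.38 and 0.35 with the 8 over all mice, and 0.57 with each other. With group means removed these became −0.47 to 0.66 and 0.69, and Dnajb9 reached 0.66 with Hspa5 and 0.62 with Creld2. These are descriptions, since all points of a mouse share its library and scaling factor.

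**Figure D3:**
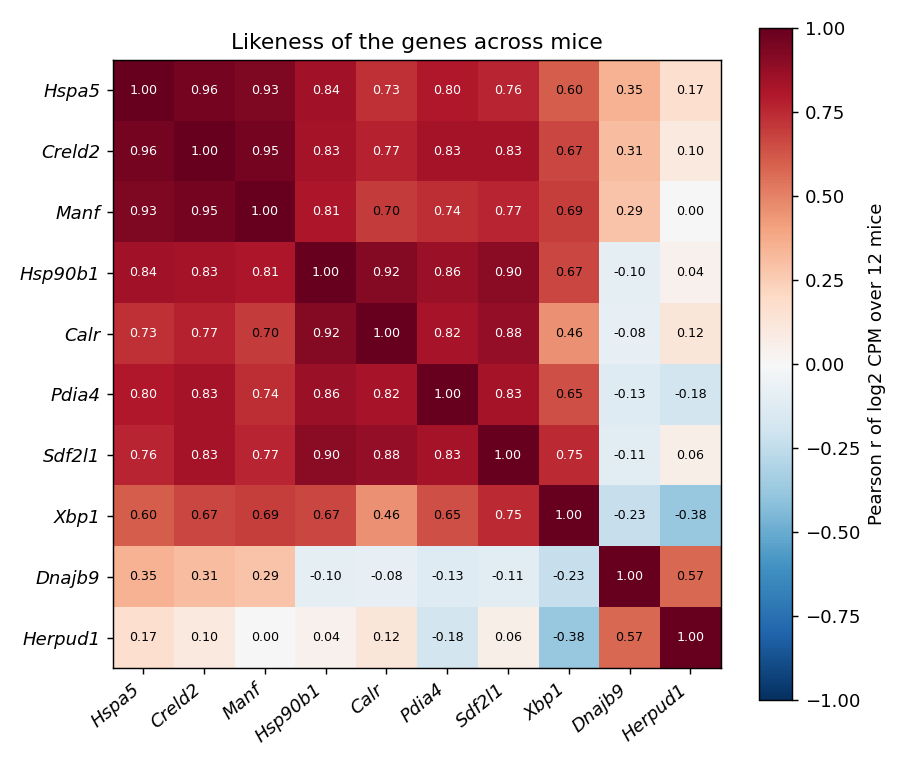
Pearson's r of log2 normalized CPM over the 12 mice for each pair of the 10 genes, on a scale from −1 to 1. Hspa5, Creld2 and Manf form the tightest group (0.93 to 0.96), and Dnajb9 and Herpud1 have r between −0.38 and 0.35 with the other 8, group differences included.

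Creld2 was the most like Hspa5 of the 14669 other genes tested (r = 0.96 over 12 mice), and Manf had rank 3 (0.93). Outside the 10 genes the most alike were Hspa13, another HSP70 of the ER (0.94), Sec61a1, the channel subunit of the translocon (0.93), Syvn1, the ubiquitin ligase of ER-associated degradation (0.92), Txndc5, a disulfide isomerase (0.91), and Sec23b, a coat protein of ER export vesicles (0.89). Over the 7 mice with low acinar signal Sec61a1 (0.99), Hspa13 (0.98) and Sec23b (0.97) were again among the first 5, with Gm2274 (0.98) and Tti1 (0.97), while Creld2 ranked at 8 and Manf at 13.

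The rest of the response was read from 58 other genes, all tested. Over both fat levels 7 of them fell and 2 rose, where 3.70% of all genes were called lower and 3.21% higher. The 2 that rose lie near the share of all genes. The median of the 58 was −0.11. Of 19 folding genes 3 fell: the disulfide isomerases Pdia6 (log2 −0.49, SE 0.072, edgeR adjusted p = 0.00127), Pdia3 (−0.32, adjusted p = 0.0103) and Pdia5 (−0.37, adjusted p = 0.0397). Pdia6 was at 371, 425 and 361 CPM in the RF.Ctrl mice and 235, 218 and 268 with RF.SAAR, and was the only one of the 58 called on the regular-fat diets alone (−0.68, edgeR adjusted p = 0.00490). Its promoter window holds an exact ERSE, as do those of the folding genes Dnajc3 and Canx and the degradation genes Derl3 and Syvn1, which were not called. Of 16 genes for entry into and exit from the ER, all had lower estimates with TMM scaling and 3 fell: Spcs3 of the signal peptidase (−0.37, edgeR adjusted p = 0.0134), the translocon partner Sec63 (−0.28, adjusted p = 0.0187) and the signal sequence receptor Ssr1 (−0.31, adjusted p = 0.0276). Of 16 degradation genes only Edem1, which hands misfolded glycoproteins to degradation, fell (−0.26, edgeR adjusted p = 0.0355), and 7 had higher estimates.

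Of the 7 genes listed for the sensors 2 rose over both fat levels, where 3.21% of all genes were called higher. Atf6 rose (log2 0.38, SE 0.099, edgeR adjusted p = 0.0336), from 54.1, 69.6 and 65.8 CPM in the RF.Ctrl mice to 79.9, 69.5 and 95.2 with RF.SAAR, and from 57.3, 50.6 and 62.6 in the HF.Ctrl mice to 80.7, 65.3 and 78.4 with HF.SAAR. Eif2ak3, for PERK, rose too (0.44, SE 0.12, edgeR adjusted p = 0.0447), from between 10.5 and 13.4 CPM in the Ctrl mice to between 11.1 and 18.7 in the SAAR mice. Ern1 had 0.31 (SE 0.16, adjusted p = 0.311). The other 4 genes of that list, Atf6b, Mbtps1, Mbtps2 and Creb3l3, are not among the sensors described above and were not called. Under library size scaling the 58 genes gave 8 higher and 1 lower call, Atf6, Eif2ak3 and Pdia6 among them, where 14.8% of all genes were called higher and 1.87% lower. Their median was then 0.054, against 0.16 for all genes, and 7 of the 16 entry and exit genes had estimates above 0 with none called. Without the mice with high acinar signal none of the 58 was called, against 1.53% of all genes. Over 20 alternative settings, the 12 fits with 1 mouse left out among them, Pdia6 was called in 19, Pdia3 and Spcs3 in 18, Sec63 in 15, Atf6 in 11, Ssr1 in 10, Pdia5 and Edem1 in 7 and Eif2ak3 in 6. All kept their sign in the 20 settings except Edem1, which turned to 0.032 when the estimated transcript lengths entered as offsets.

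The ATF4 arm was read in the same mice. Of 27 genes of the arm 26 were tested, and over both fat levels 12 rose and none fell, with a median of 0.59. Of all genes 3.21% were called higher and 3.70% lower there. On the regular-fat diets 4 rose and on the high-fat diets 10, where 1.48% and 1.97% of all genes were called in either direction. Atf5, a transcription factor that ATF4 induces, was at 236, 248 and 202 CPM with RF.Ctrl, 416, 459 and 390.0 with RF.SAAR, 186, 168 and 151 with HF.Ctrl, and 550.4, 438 and 623 with HF.SAAR (log2 1.28 over both, SE 0.096, edgeR adjusted p = 5.92e-06). Of the other genes that rose, Psat1 and Phgdh of serine synthesis had log2 fold changes of 3.37 and 2.26, the mitochondrial folate enzymes Mthfd2 and Aldh1l2 had 2.37 and 1.97, and Pck2, the mitochondrial PEPCK, had 1.62. Fgf21, a hormone the liver releases in amino acid shortage, had the largest of the arm at 4.07 (edgeR adjusted p = 0.00295) and is named here for that value, outside the naming rule.

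Asns, asparagine synthetase, was at 4.23, 6.55 and 22.8 CPM with RF.Ctrl, 27.7, 30.3 and 23.4 with RF.SAAR, 3.21, 6.67 and 4.02 with HF.Ctrl and 48.6, 29.9 and 59.6 with HF.SAAR (log2 2.29 over both, SE 0.42, edgeR adjusted p = 0.0127). Atf4 itself rose by 0.39 (SE 0.11, edgeR adjusted p = 0.0386), a call kept in 9 of the 20 alternative settings. Ddit3, for CHOP, also a gene of the ATF4 arm, was not called (0.13, SE 0.15, edgeR adjusted p = 0.699). Without the mice with high acinar signal, 23 of the 26 genes had higher estimates over both fat levels and 3 lower, with a median of 0.78. Atf5 then had 1.38, Psat1 3.59, Fgf21 3.72, Asns 2.24 and Atf4 0.26. In that fit, with 1 mouse in each high-fat group, Psat1, Fgf21, Asns and Atf4 were no longer called. Atf5, Mthfd2, Phgdh, Aldh1l2 and Pck2 still were. Of the 24 genes of the arm with a promoter window (29 windows in all), none had an exact ERSE, against 0.137% of all genes. Ddit3 had a copy with 1 letter differing. The composite C/EBP-ATF site was in 9 of the 24, against 4.51% of all genes.

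**Figure D4:**
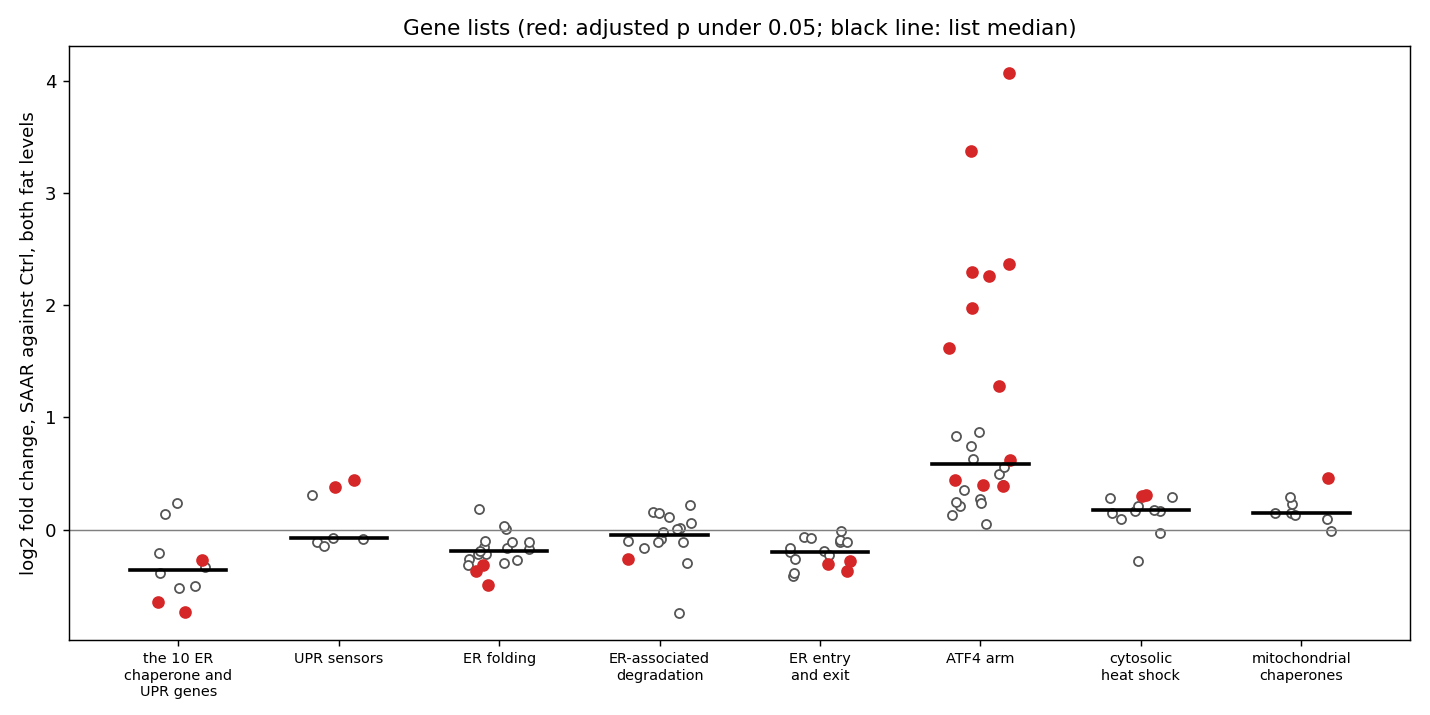
Log2 fold change with restriction over both fat levels (vertical axis) of each tested gene in 8 gene lists, with the list's median as a black line and called genes in red. The ATF4 arm reaches 4.07 and has its called genes above 0, while those of the 10 ER genes lie below 0.

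Chaperones outside the ER were also read. Of all genes 3.21% were called higher and 3.70% lower over both fat levels. In either direction 1.48% were called on the regular-fat and 1.97% on the high-fat diets. Of 12 cytosolic heat shock genes 2 rose over both fat levels and none fell: Hspa8, the constitutive HSP70 (log2 0.30, SE 0.061, edgeR adjusted p = 0.00935), and Hsp90ab1, the constitutive HSP90 (0.31, SE 0.059, adjusted p = 0.00701). These are the cytosolic counterparts of Hspa5 and Hsp90b1. Of 8 mitochondrial chaperone and protease genes 1 rose, Hspa9, the mitochondrial HSP70, and it was called at each fat level and over both (0.46, SE 0.055, edgeR adjusted p = 0.000278). Hspa9 was at 527, 556 and 564 CPM with RF.Ctrl, 681, 702 and 733 with RF.SAAR, 495, 511 and 509.6 with HF.Ctrl and 725, 728 and 785 with HF.SAAR, without overlap. Without the mice with high acinar signal none of these lists had a called gene.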

How the data were processed

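Liver RNA of the 12 mice was sequenced after NEBNext Ultra II library preparation. Per the labels and methods, the authors trimmed reads with cutadapt and quantified Ensembl transcripts with kallisto. The deposited values are estimated counts per transcript as kallisto shares reads among transcripts, the deposited TPM are per length and library, and the deposited effective lengths served only as an alternative offset. Estimated counts of 116816 of 118489 transcripts were summed by gene with GENCODE M21 and rounded. The unmatched transcripts held 1.08% of counts.

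Analyses used R 4.3.3, edgeR 4.0.16 (TMM, filterByExpr, robust quasi-likelihood, 4 group coefficients, Benjamini-Hochberg adjustment), limma 3.58.1 and DESeq2 1.42.0. The fit was tested on simulated data. The 6 comparisons were restriction at each fat level and over both, fat at each diet, and the interaction. Replicates in a group differed beyond sampling noise (chi-square per degree of freedom 20.6 to 57.6 over 12 pairs). The group labels place RF and HF under diet and Ctrl and SAAR under fat content, and were read by their values. Log2 CPM used a prior count of 2.

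The genes, lists and tests were chosen with earlier results of these data known. Named are the 10 genes, Ern1, Eif2ak3 and Atf6, at most 8 other called response genes by smallest p over both fat levels, Atf4, Ddit3, Asns and at most 6 called genes of the ATF4 arm, at most 3 called genes of each other chaperone list, and the 5 genes most like Hspa5.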

Additional observations from a re-analysis of the deposited data

How the results depend on the processing

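Alternatives were RLE factors, library size, a filter of at least 1 count in all, a filter of 10 in every mouse, effective-length offsets, DESeq2, the compared groups alone, the acinar covariate, leaving out the mice with high acinar signal, and leaving out each mouse. The count of called genes over both fat levels, 3, went to 1 with library size and to 0 without the 5 mice with high acinar signal. It ranged from 1 to 3 with 1 mouse left out, and was 1 (Sdf2l1) without RF.Ctrl mouse 2, RF.SAAR mouse 1, HF.Ctrl mouse 1 or 2, or HF.SAAR mouse 1 or 2. The count on the regular-fat diets, 0, went to 2 with DESeq2. The counts in the other 4 comparisons were 0 under each alternative run. Xbp1 was not called without the count filter (edgeR adjusted p = 0.124), and Pdia4 was called (0.0498) without RF.Ctrl mouse 1. In HF.SAAR vs. HF.Ctrl the direction turned with library size for Hsp90b1 (0.0055) and Calr (0.10), and without the high acinar mice for Calr (0.043) and Manf (0.11), where the lone mouse of each group is assumed to vary like the others. With 1 mouse left out, Dnajb9 ranged from −0.056 to 0.55 on the regular-fat and from −0.036 to 0.21 on the high-fat diets, and Herpud1 from −0.24 to 0.44 on the regular-fat diets and from −0.025 to 0.31 over both. The causes were not tested. No paired analysis was possible because the labels give no replicate numbers, and the mouse numbers used here only name the mice. With 3 mice a group, the spread between mice limits what can be called: Creld2 (−0.51, SE 0.26) and Manf (−0.52, SE 0.24) were not called over both fat levels, while Hsp90b1 (−0.27, SE 0.073) was.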
